A study of Mus musculus with 4 samples.

Results

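Desmosomes are the junctions that rivet neighbouring keratinocytes to each other, and the 10 genes described here encode their mouse components: the cadherins Dsg2, Dsg3, Dsc2 and Dsc3, the armadillo proteins Jup, Pkp1, Pkp2 and Pkp3, the plakin Dsp and the membrane protein Perp. They were taken by gene symbol, by a rule that names no measured value, from the 24346 symbols that the files list, and all 10 were found. RNA was sequenced from 2 libraries of 10p-HFSCs and 2 libraries of 48p-HFSCs, which are hair follicle stem cells (HFSCs) passaged 10 or 48 times. All libraries share their origin: epithelial cells from the dorsal skin of C3H/HeN mice 4 weeks of age, sorted for CD49f and CD34 and grown in the serum-free medium M-CnT, with no transgene and no added treatment named in the labels. The groups therefore differed in passage number, and the labels do not say whether the replicates of a group were separate cultures, so p-values measure the spread between these samples, which may be technical. Levels are FPKM (fragments scaled for transcript length and for the mapped fragments of the library), which can be compared between genes.

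In a desmosome, desmogleins (Dsg) and desmocollins (Dsc) of adjacent cells bind each other outside the membrane. Inside the cell their tails are held by plakoglobin (Jup) and the plakophilins (Pkp), which in turn bind desmoplakin (Dsp), the protein that anchors keratin filaments. Basal cells of stratified epithelia are known to use mainly Dsg3 and Dsc3 with Dsg2 and Dsc2 at lower levels, while the isoforms Dsg1 and Dsc1 belong to differentiating layers.

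The largest differences between the passages were those of the cadherins Dsc2 and Dsg2. Both were higher in 48p-HFSCs, and Dsc3 was above 10p-HFSCs in both libraries without passing the test. Dsg3, the most abundant desmosomal cadherin of 10p-HFSCs, did not differ beyond the spread between replicates. Of the cytoplasmic proteins Pkp1 was higher in 48p-HFSCs. Thus 3 of the 10 genes were called higher (adjusted p under 0.05 and an absolute difference of at least 1 on the log2(FPKM + 1) scale) and 0 were called lower by limma, at backgrounds of 10.8% and 9.15% of the 11018 genes tested. At an unadjusted p under 0.05 the count was 5 of 10, all of them higher, beside 37.4% of all genes tested in either direction. All 10 genes passed the filter on low values (at least 2 libraries with an FPKM of 1 or more), but Dsg2 passed only through the 48p libraries and was thereby bound to differ; without it 2 of 9 genes were called higher. The median difference over the 10 genes was 0.88 on the log2 scale, beside -0.03 over all genes tested. Dsg2 is also among the 5 genes at an unadjusted p under 0.05 and enters this median. Scaled to TPM, Dsg2 alone of the 10 genes was called higher (background 5.65%), which leaves 0 of 9 without it. With every library corrected for length and GC 5 of the 10 were called higher, Dsg2 among them (background 11.5%).

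Both 48p libraries lay above both 10p libraries for 6 of the 10 genes, against 31.7% of all genes tested, and below them for 1 gene, against 34.3%. Dsg2, bound by the filter to differ, is 1 of those 6. In bulk RNA, fewer cells that express a gene and less RNA per cell cannot be told apart. A gene that is called in a group of 2 libraries can also rest on 1 of them, so each library is given below.

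**Figure D1:**
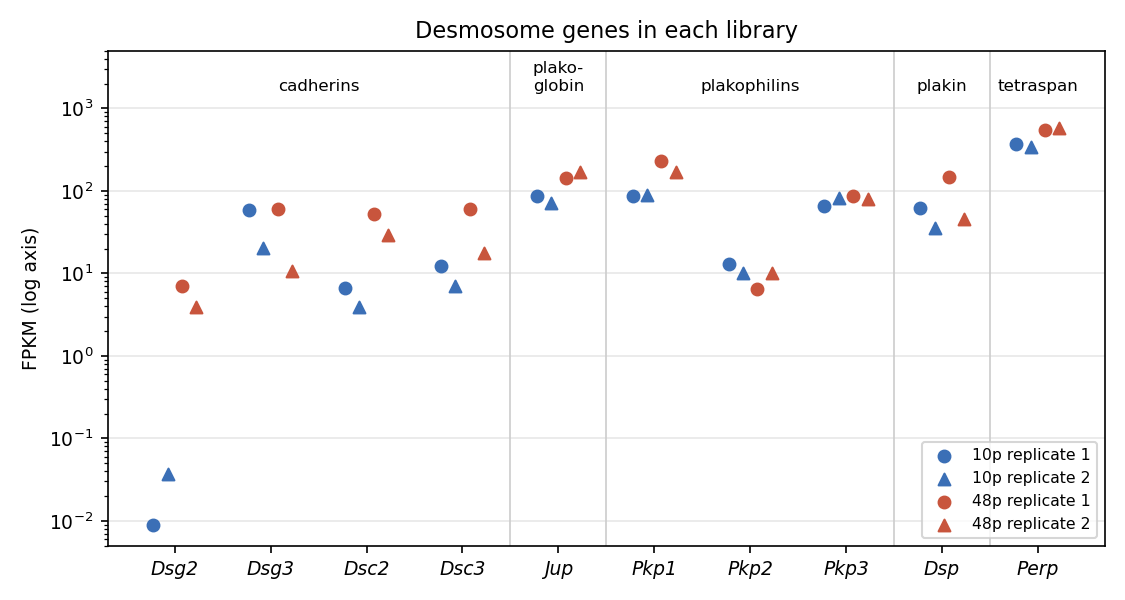
FPKM of the 10 desmosome genes, grouped by protein family, on a logarithmic axis, with 1 point for each library (blue for 10p-HFSCs, red for 48p-HFSCs, circles for replicate 1 and triangles for replicate 2). Perp lay highest in every library, and the 10p points of Dsg2 were 0.00885 and 0.0371 FPKM while its 48p points were 7.02 and 3.88 FPKM.

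The 4 cadherin genes lie in 1 cluster on chromosome 18 (GRCm38, GENCODE M21), which holds 9 desmosomal cadherin genes within 643.6 kb between positions 19960930 and 20604521. Dsc3 (chr18:19960930-20002351) and Dsc2 (chr18:20030633-20059554) are on the minus strand. Dsg3 (chr18:20510274-20547459) and Dsg2 (chr18:20558074-20604521) are neighbours on the plus strand at the other end. Genes between them, Dsc1, Dsg1c, Dsg1a, Dsg1b and Dsg4, are described further down with the related lists.

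Dsc2, a desmocollin found in nearly all desmosome-bearing tissues, was listed at 6.56 and 3.89 FPKM in the 10p libraries and at 51.8 and 29.6 FPKM in the 48p libraries. The groups were far apart, with the lower 48p library several times above the higher 10p library. The means were 5.22 ± 1.89 FPKM (SD, n = 2) and 40.7 ± 15.7 FPKM (SD, n = 2), a ratio of 7.79. Dsc2 rose by 2.72 on the log2(FPKM + 1) scale (SE 0.38, 95% confidence interval 1.78 to 3.67, limma adjusted p = 0.00693). Scaled to TPM the call was lost, at 2.23 and an adjusted p of 0.053.

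Dsg2, the desmoglein of simple epithelia and heart that is also made by follicle and basal keratinocytes, was listed at 0.00885 and 0.0371 FPKM in the 10p libraries and at 7.02 and 3.88 FPKM in the 48p libraries. The 10p values sit at the bottom of the scale, where 1 read more or less moves a value by a large factor; the second was 4.19 times the first, or 3.0 times after their difference in depth. For that reason the log2(FPKM + 1) scale is used, which understates changes of low genes. On it Dsg2 rose by 2.61 (SE 0.31, 95% confidence interval 1.84 to 3.38, limma adjusted p = 0.00411). The annotation places an antisense gene, Gm16090, within Dsg2, and the strand setting of the authors' counting is not given in the sources used here, so reads of the pair cannot be told apart.

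Dsc3, the desmocollin of basal layers, was listed at 12.3 and 6.97 FPKM in the 10p libraries and at 61.1 and 17.6 FPKM in the 48p libraries. Both 48p libraries were above both 10p libraries, but the first was more than 3 times the second. The difference of 1.72 (SE 0.60, 95% confidence interval 0.24 to 3.20) did not pass the test (limma adjusted p = 0.0968).

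Dsg3, the desmoglein known as the pemphigus vulgaris antigen, was listed at 58.7 and 20.3 FPKM in the 10p libraries and at 60.5 and 10.7 FPKM in the 48p libraries. The groups overlapped, and the first library of each group was high and the second low. The difference was -0.41 (SE 0.86, limma adjusted p = 0.752), and its interval from -2.52 to 1.69 leaves room for a change past the size limit of 1 in either direction. Leaving out 1 library moved it between -1.61, without the first 48p library, and 0.79, without the second.

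Since the members of the family differed between the passages to unequal extents, the cadherins were also compared as shares of their summed FPKM within each library. A factor common to all genes of a library cancels out of such shares. Dsg3 made up 75.7% and 65.1% in the 10p libraries and 33.5% and 17.3% in the 48p libraries, which do not overlap. Dsc2 made up 8.45% and 12.5% in 10p-HFSCs, against 28.7% and 47.9% in 48p-HFSCs. Dsc3 made up between 15.9% and 22.3% in 10p-HFSCs and between 28.5% and 33.9% in 48p-HFSCs. Dsg2 was at most 0.119% in 10p-HFSCs, against 3.89% and 6.29% in 48p-HFSCs. Desmogleins were thus in excess of desmocollins in both 10p libraries and desmocollins in excess of desmogleins in both 48p libraries: the ratio of Dsc2 plus Dsc3 to Dsg2 plus Dsg3 was 0.321 and 0.533, then 1.67 and 3.24.

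With 2 libraries against 2 an exact permutation test cannot give a two-sided p below 0.333, so the shares were not tested and are given as values. The summed FPKM of the 4 cadherins overlapped between the groups, at 77.6 and 31.2 in 10p-HFSCs against 180.5 and 61.8 in 48p-HFSCs. None of the 4 shares overlapped, but they depend on each other, and Dsg2 was bound by the filter to differ. Over all genes tested 31.7% lay above and 34.3% below in both 48p libraries. The 4 shares also stayed apart after the correction for length and GC, and with all 9 cadherin genes in the denominator. In the latter Dsg3 made up 75.3% and 64.6% against 31.5% and 16.9%. Both alternatives were chosen after seeing the data.

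**Figure D2:**
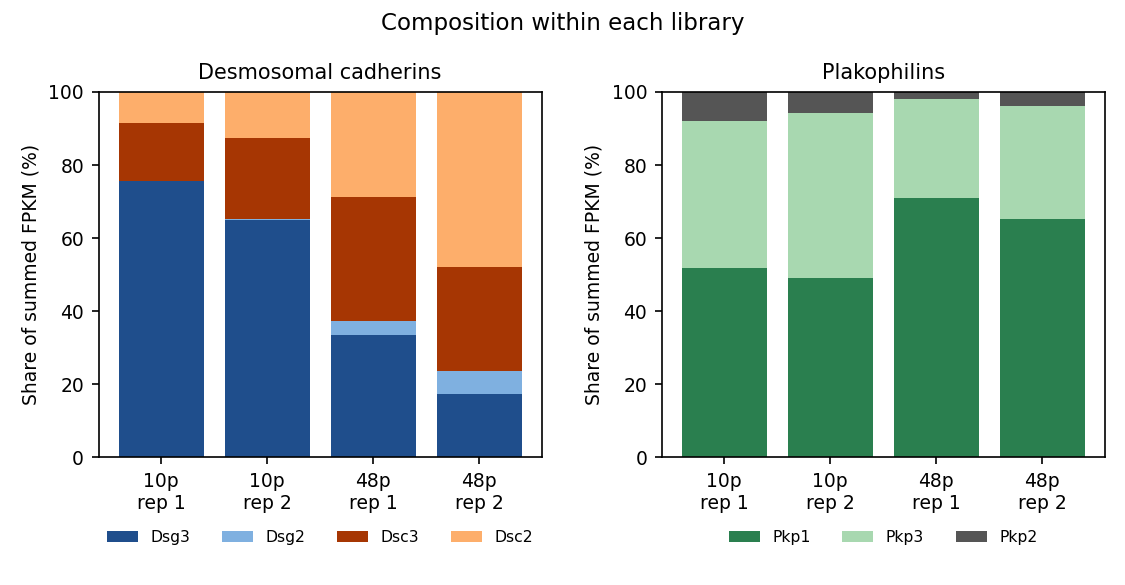
Share in percent of the summed FPKM of the 4 desmosomal cadherins (left) and of the 3 plakophilins (right) in each library, as stacked bars from 0 to 100%. The Dsg3 segment was 75.7% and 65.1% in the 10p libraries against 33.5% and 17.3% in the 48p libraries, and the Pkp1 segment was 51.8% and 49.0% against 71.1% and 65.2%.

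Plakoglobin, encoded by Jup (chr11:100368958-100397763, minus strand), links the cadherin tails to desmoplakin and also serves in adherens junctions. It was listed at 85.7 and 72.2 FPKM in 10p-HFSCs and at 142 and 172 FPKM in 48p-HFSCs, with no overlap. The means were 78.9 ± 9.56 and 157 ± 20.7 FPKM (SD, n = 2 each). The difference of 0.98 on the log2 scale (SE 0.29, 95% confidence interval 0.28 to 1.69, limma adjusted p = 0.0614) passed neither the adjusted p nor the size limit of 1. Relative to Ctnnb1, the β-catenin gene and the closest relative of Jup, its level was 0.440 and 0.455 in 10p-HFSCs, against 0.849 and 1.27 in 48p-HFSCs.

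The plakophilins are armadillo proteins that cluster the plaque. Pkp1 (chr1:135871395-135919207, minus strand), the isoform of stratified epithelia, was listed at 85.5 and 88.8 FPKM in 10p-HFSCs and at 232 and 168 FPKM in 48p-HFSCs. The 10p libraries were within a few FPKM of each other and both 48p libraries were clearly above them. Pkp1 rose by 1.17 (SE 0.31, 95% confidence interval 0.41 to 1.92, limma adjusted p = 0.0469), a call close to the threshold that was lost under several alternatives, among them scaling to TPM (difference 0.59, adjusted p = 0.384). The annotated gene Gm36938 overlaps Pkp1 on the same strand.

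Pkp3 (chr7:141078218-141090510, plus strand), which is found in all living epidermal layers, was listed at 66.5 and 82.3 FPKM in 10p-HFSCs and at 87.5 and 79.6 FPKM in 48p-HFSCs, and the groups overlapped. Its difference was 0.17 (SE 0.27, 95% confidence interval -0.49 to 0.83, limma adjusted p = 0.673), with the sign turning under TPM (-0.41) and quantile scaling (-0.07). Pkp2 (chr16:16213318-16272712, plus strand), the plakophilin of heart and simple epithelia, was listed at 13.0 and 10.2 FPKM in 10p-HFSCs and at 6.49 and 10.1 FPKM in 48p-HFSCs. It was the 1 gene of the set with both 48p libraries below both 10p libraries, by a margin of 10.1 against 10.2 FPKM, and its difference of -0.46 (SE 0.32, 95% confidence interval -1.24 to 0.32) did not pass the test (limma adjusted p = 0.334).

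Of the plakophilin total Pkp1 took 51.8% and 49.0% in the 10p libraries, then 71.1% and 65.2% in the 48p libraries. Pkp3 took 40.3% and 45.4%, then 26.9% and 30.9%, and Pkp2 took 7.85% and 5.65%, then 1.99% and 3.92%. None of these shares, which depend on each other, overlapped between the groups. Over all genes tested 31.7% lay above and 34.3% below in both 48p libraries. The ratio of Pkp1 to Pkp3 was 1.29 and 1.08 in 10p-HFSCs, against 2.64 and 2.11 in 48p-HFSCs. The summed FPKM of Jup and the 3 plakophilins, 250.6 and 253.5 in 10p-HFSCs, was 468 and 429.1 in 48p-HFSCs, which unlike that of the cadherins did not overlap.

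Desmoplakin, encoded by Dsp (chr13:38151294-38198577, plus strand), carries the link to keratin and is needed in every desmosome. It was listed at 62.6 and 35.8 FPKM in 10p-HFSCs and at 147 and 45.2 FPKM in 48p-HFSCs. The second 48p library lay between the 10p libraries, so the groups overlapped, and the high 48p mean came from the first. The difference was 0.77 (SE 0.59, 95% confidence interval -0.69 to 2.23, limma adjusted p = 0.381), and without the first 48p library it was -0.06. An annotated antisense gene, Gm10129, overlaps Dsp.

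Perp (chr10:18845020-18857073, plus strand), a four-span membrane protein and p63 target needed for stable desmosomes in stratified epithelia, was the most abundant of the 10. It was listed at 366 and 344 FPKM in 10p-HFSCs and at 540.3 and 579 FPKM in 48p-HFSCs, with replicates that lay close together and groups that did not overlap. The difference of 0.66 (SE 0.39, 95% confidence interval -0.31 to 1.62) did not pass the test (limma adjusted p = 0.27), in a fit that takes part of its error from the spread of other genes of like abundance.

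**Figure D3:**
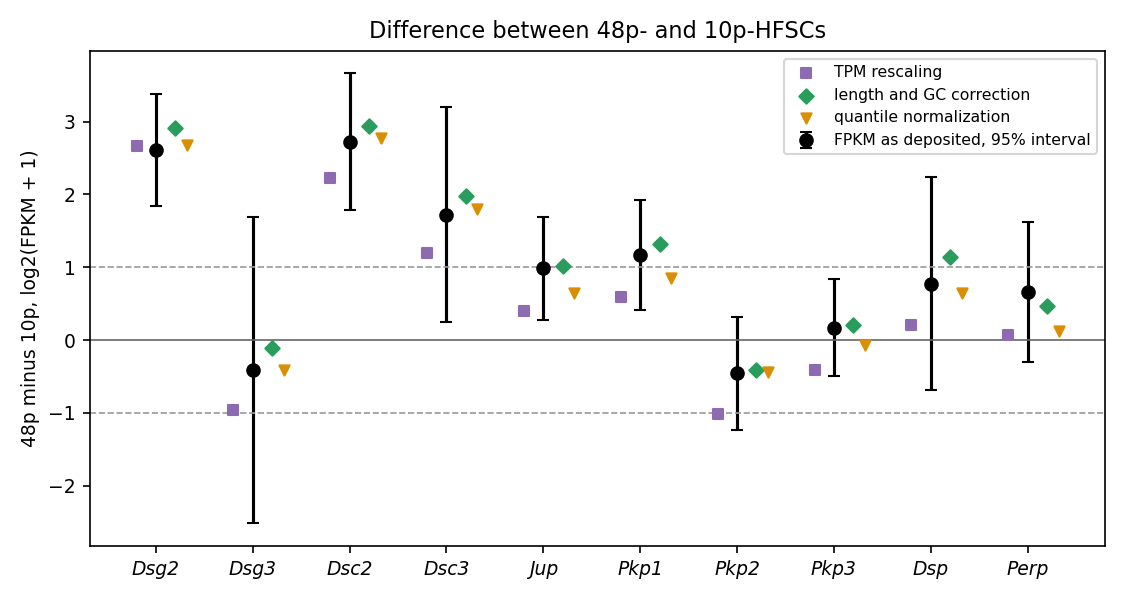
Difference between 48p-HFSCs and 10p-HFSCs on the log2(FPKM + 1) scale for the 10 desmosome genes, as black points with 95% confidence intervals from limma, beside the differences after TPM rescaling (squares), length and GC correction (diamonds) and quantile normalization (triangles); dashed lines mark the size limit of 1. Dsc2 (2.72) and Dsg2 (2.61) stay above 2 in all 4 versions, Pkp3 changes sign under TPM (-0.41) and quantile scaling (-0.07), and the widest interval, from -2.52 to 1.69, belongs to Dsg3.

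The stretch upstream of the start site is shown for Jup and Dsp, the plaque proteins that connect cadherins to keratin and the 2 of the 10 genes with an entry among the RefSeq promoters used (GRCm38.p6). Each sequence is the 250 bases before the RefSeq start site, which for Jup lies a little upstream of the GENCODE gene given above, 5′ to 3′ on the gene's strand, at chr11:100397791-100398040 for Jup and chr13:38151044-38151293 for Dsp. Capitals mark the GC box GGGCGG on either strand.
Jup: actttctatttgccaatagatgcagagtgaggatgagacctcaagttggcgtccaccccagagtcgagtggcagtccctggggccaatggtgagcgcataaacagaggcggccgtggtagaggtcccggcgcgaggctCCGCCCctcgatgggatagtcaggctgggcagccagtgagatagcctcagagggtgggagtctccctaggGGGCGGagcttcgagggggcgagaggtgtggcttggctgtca
Dsp: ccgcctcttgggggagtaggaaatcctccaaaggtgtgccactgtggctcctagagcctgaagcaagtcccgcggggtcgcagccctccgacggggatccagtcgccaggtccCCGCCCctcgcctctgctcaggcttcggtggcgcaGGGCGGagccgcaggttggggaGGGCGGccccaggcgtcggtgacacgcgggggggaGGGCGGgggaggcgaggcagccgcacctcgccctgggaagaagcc
Jup held 2 GC boxes, at -112 and -42 from the RefSeq start site, and Dsp held 4, at -137, -102, -80 and -45. This motif is found in 32.9% of 27025 RefSeq promoter windows of the same length. On either strand, neither sequence held CAGGTG, the E-box of Snail and ZEB factors (17.1% of windows), TGANTCA, the AP-1 site (6.87%), or AACCGGTT, the grainyhead site (0.122%). A match describes the letters only.

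The replicates of a group did not agree equally well for all 10 genes. In 48p-HFSCs the second library minus the first was -2.39 for Dsg3, -1.74 for Dsc3 and -1.68 for Dsp on the log2(FPKM + 1) scale. Thus 3 of the 10 genes differed between the 48p replicates by at least 1, beside 17% of all genes tested. In 10p-HFSCs Dsg3, at -1.49, was the 1 gene of the set that did so, beside 1.37% of all genes. Perp, Jup and Pkp3 differed by at most 0.30 between replicates in either group.

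Long genes as a whole read lower in the second library of each group. The median difference between replicates went from 0.39 for genes under 1 kb to -0.31 for genes over 7 kb in 10p-HFSCs, and from 0.88 to -0.35 in 48p-HFSCs. The desmosome genes with the large differences are long, with longest annotated transcripts of 6212 bases for Dsg3, 5333 for Dsc3 and 9592 for Dsp. Among genes within a factor of 1.2 of their length they lay at the 0.282, 1.34 and 1.34 percentiles in 48p-HFSCs and at the 0.211, 3.29 and 9.40 percentiles in 10p-HFSCs. The medians of those genes were -0.27, -0.20 and -0.37 in 48p-HFSCs. These 3 genes were picked for their large differences, and the part of length in them was not tested.

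**Figure D4:**
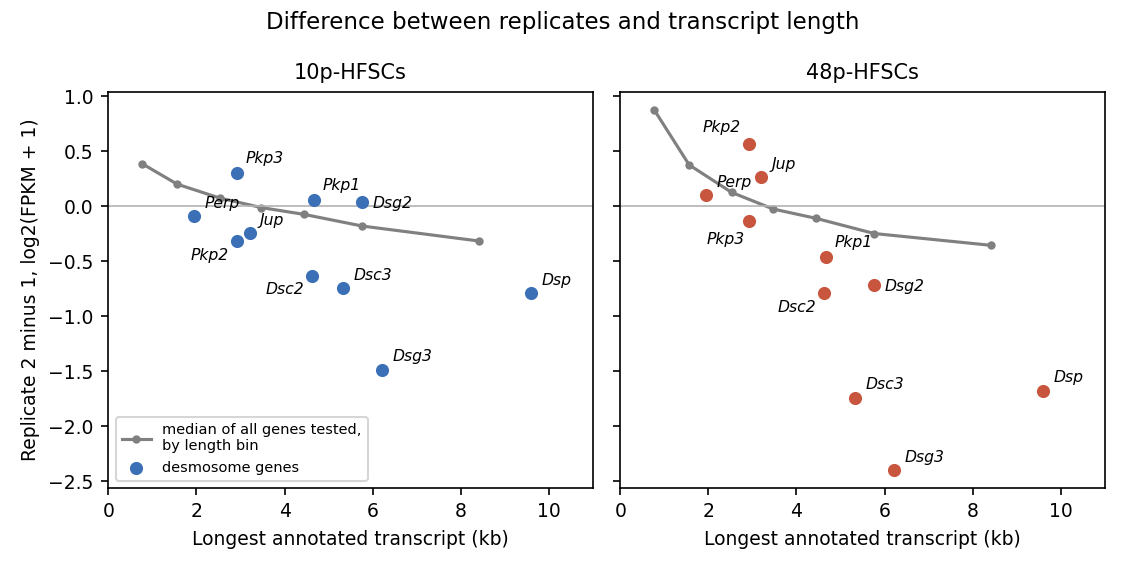
Difference between the replicates of a group (second minus first library, log2(FPKM + 1) scale) against the longest annotated transcript in kb for the 10 desmosome genes, in 10p-HFSCs (left) and 48p-HFSCs (right), with the median of all genes tested by length bin as a line. Dsg3 lay lowest in both panels, at -1.49 and -2.39, well under the line.

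Other desmosomal genes at the same junction were partly below the range of the test, with 4 of 9 tested. Of these 2 were called higher and 0 lower, at backgrounds of 10.8% and 9.15%. Scaled to TPM 0 were called higher (background 5.65%). Evpl, the cornified envelope plakin envoplakin, rose by 1.63 (limma adjusted p = 0.0111), from 2.57 and 2.55 FPKM to 10.6 and 9.46 FPKM. Cdsn, the corneodesmosome glycoprotein, rose by 1.36 (limma adjusted p = 0.0373), from 0.652 and 0.579 to 4.48 and 2.16 FPKM, and passed the filter only through 48p-HFSCs. Pkp4 and Ppl, the plakin periplakin, were not called. Of the differentiation cadherins, Dsg1a was listed at 0.0180 and 0.0504 FPKM in 10p-HFSCs and at 7.24 and 0.772 FPKM in 48p-HFSCs. Dsg1b was listed at 0.244 and 0.149, then 3.37 and 0.294 FPKM, and Dsc1 was under 0.75 FPKM in all 4 libraries. Dsg1c was listed at 0 and 0, then 0.127 and 0 FPKM. Dsg4 went the other way, at 0.0448 and 0.0208, then 0 and 0 FPKM. These were not tested, Dsg1a, Dsg1b and Dsg1c are near-identical copies between which reads may be split, and the first 48p library carries most of the Dsg1 signal.

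Of the genes that modify, shed or bind desmosomal proteins, 11 of 14 were tested and 1 was called higher, a share near the background of 10.8%. Adam15, a membrane metalloprotease, rose by 1.63 (limma adjusted p = 0.00917), from 8.72 and 9.99 FPKM to 29.8 and 32.3 FPKM. The shedding enzymes Adam10 and Adam17 and the kinase Prkca, which regulates desmosome adhesion, were not called.

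Of the transcription factors known for the control of epithelial junction genes, 7 of 11 were tested, 2 were called higher and 1 lower, at backgrounds of 10.8% and 9.15%. Grhl3, a grainyhead factor, rose from 1.12 and 0.636 FPKM to 5.22 and 3.45 FPKM (limma adjusted p = 0.0219), with only 1 of its 10p libraries at 1 FPKM or more. Ovol1 rose by 2.17 (limma adjusted p = 0.00425), having passed the filter only through 48p-HFSCs. Ovol2 fell by 2.25 (limma adjusted p = 0.00307), from 4.01 and 4.45 FPKM to 0 and 0.207 FPKM, and passed the filter only through 10p-HFSCs. Each of these called genes thus needed the group in which it was high to pass the filter, so their counts cannot be read against the backgrounds. Trp63, the p63 gene, was listed at 60.4 and 42.0, then 124 and 52.7 FPKM and was not called, with the same high first library as Dsg3, Dsc3 and Dsp. The repressor Snai2 averaged 105.8 ± 7.11 FPKM in 10p-HFSCs and 78.1 ± 11.7 FPKM in 48p-HFSCs (SD, n = 2 each) without a call, and Zeb2 and Twist1 were listed at 0 in all libraries.

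The other 2 anchoring junctions were summarised in the same way, with no test of either against the desmosome and the same 10.8% background of genes called higher. In the adherens junction 9 of 11 genes were tested, with a median difference over the list of 0.21. The nectins Pvrl1 (rise of 1.48, limma adjusted p = 0.0126) and Pvrl4 (rise of 2.40, limma adjusted p = 0.00309) were called higher. Directions were mixed. Both 48p libraries were above both 10p libraries for 4 genes (31.7% of all genes tested) and below them for 3 (34.3%). Those below were Cdh3 (-1.04, limma adjusted p = 0.0656), Mllt4 (-0.997, 0.0563) and Ctnnd1 (-0.68, 0.17), none of them called. The classical cadherin Cdh1 of the adherens junction was listed at 93.1 and 75.2, then 102 and 113 FPKM and was not called. Dsc2 relative to Cdh1 was 0.0705 and 0.0517 in 10p-HFSCs, against 0.509 and 0.261 in 48p-HFSCs. In the hemidesmosome, which ties basal cells to the basement membrane, all 8 genes of the list were tested and 3 were called higher: the integrin subunits Itga6 (1.77, limma adjusted p = 0.0143) and Itgb4 (1.01, 0.0487) and the laminin chain Lamb3 (1.84, 0.022). The call of Itgb4 was near both limits and was lost under several alternatives, among them TPM (0.44, adjusted p = 0.514) and no filter on low values (adjusted p = 0.0599). Their list had a median of 0.47, which falls in a gap between Plec at 0.02 and Lama3 at 0.91, neither of them called, so that adding or removing 1 gene moves it far. How many genes were called depended on which library was left out, over all genes as among the desmosome genes. Without the first 48p library the differences of Dsc2, Dsg2 and Pkp1 were 2.33, 2.26 and 0.94, and without the second 3.12, 2.97 and 1.40. Leaving out the first 10p library gave 3.04, 2.59 and 1.14 for the same genes, and leaving out the second 2.41, 2.63 and 1.195.

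**Figure D5:**
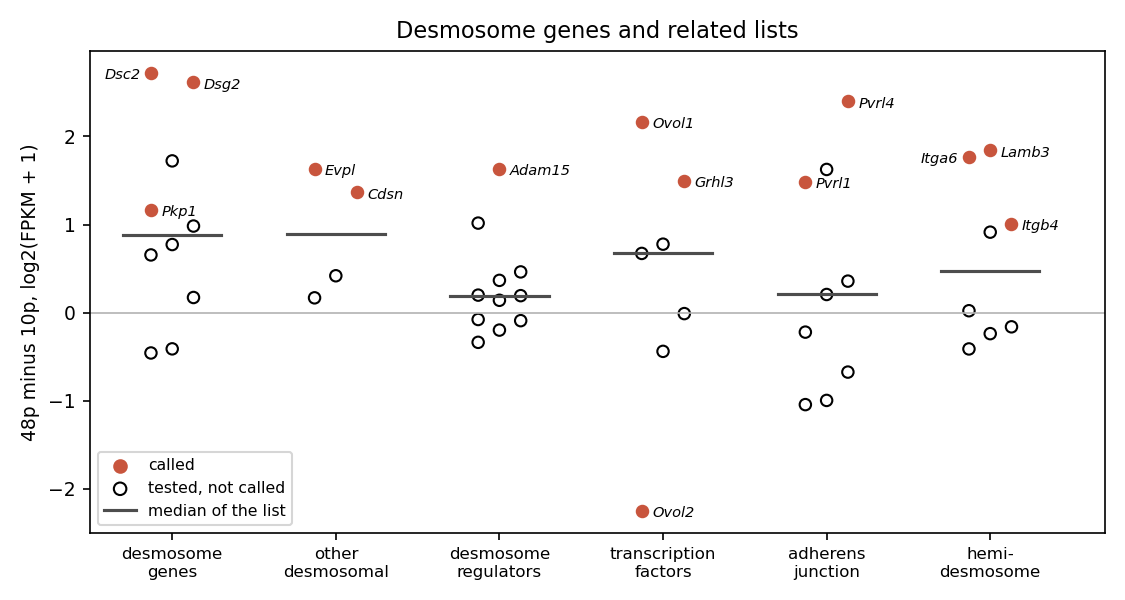
Difference between 48p-HFSCs and 10p-HFSCs (log2(FPKM + 1) scale) for the tested genes of 6 lists, with filled points for called genes, open points for the others and a line at the median of each list. The median line stands at 0.89 for the other desmosomal genes (4 tested), 0.88 for the desmosome genes and 0.67 for the transcription factors. It stands at 0.47 for the hemidesmosome, 0.21 for the adherens junction and 0.19 for the desmosome regulators.

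The 3 genes whose pattern over the 4 libraries was nearest to the median of the desmosome genes, by Euclidean distance between values centred on the gene mean on the log2 scale, were Snx7 (0.118), Bcar3 (0.128) and Ikzf2 (0.151). These distances rest on 4 libraries.

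Library-wide values bear on these results as follows. Relative to the first 10p library the depth, estimated from the steps of low values, was 71.6% in the second 10p, 82.9% in the first 48p and 46.7% in the second 48p library; the absolute depth is unknown. The summed FPKM was between 581516 and 719012 in 3 libraries and 1414953 in the second 48p library, which stands apart. Scaling all libraries to the same sum (TPM) moved the median of all genes by -0.52, and relative to that median the differences were 2.78 for Dsc2, 3.23 for Dsg2 and 1.15 for Pkp1; with FPKM those of Dsc2 and Dsg2 were 2.76 and 2.65. Krt5 and Krt14, the keratins of basal keratinocytes, were at 1217 FPKM or more in every library. Krt5 was listed at 1805 and 1473, then 8156 and 5120 FPKM and Krt14 at 1423 and 1217, then 3896 and 2439 FPKM, so both were above in both 48p libraries, as 6 of the desmosome genes were, without passing the test. The other keratinocyte markers were mixed. Itga6 and Itgb4 were called higher, while Trp63 and Col17a1 overlapped between the groups. Col17a1 was listed at 274 and 209 FPKM in 10p-HFSCs and at 230 and 140 FPKM in 48p-HFSCs. Of 6 bulge stem cell markers 4 were under 0.3 FPKM in all libraries, namely Cd34, Lhx2, Lgr5 and Nfatc1. The other bulge markers were abundant: Sox9 was called lower (45.6 and 44.2, then 20.2 and 8.31 FPKM, limma adjusted p = 0.0389), and Krt15 was listed at 136 and 82.6, then 425 and 18.8 FPKM. Of the differentiation markers Krt1, Krt10 and Lor were at 0 in all libraries, while Ivl was listed at 8.12 and 8.49 FPKM in 10p-HFSCs, against 84.1 and 13.1 FPKM in 48p-HFSCs, so it was high in the 48p library in which Dsg1a, Dsg3 and Dsp were high. Of 8 fibroblast markers 3, Dcn, Lum and Thy1, were at 0 in all libraries, and the sum over all of them was 68.9 and 60.2 FPKM in 10p-HFSCs, almost all Col1a2, and 0.185 and 0.242 FPKM in 48p-HFSCs. The melanocyte markers summed to at most 10.8 FPKM, mostly Tyr, in the second 48p library, with Dct and Sox10 at 0 in all. Of the leukocyte markers Lyz2 was called higher (0.286 and 0.479, then 3.04 and 1.96 FPKM, limma adjusted p = 0.0225), having passed the filter only through 48p-HFSCs, while Cd3e and Tyrobp were at 0 in all libraries. Of the endothelial markers Pecam1 was listed at 2.38 and 2.24, then 1.01 and 0.172 FPKM and was not called, and Cdh5 and Kdr were under 0.02 FPKM. The part of these cell types in the results was not tested.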

How the data were processed

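RNA libraries were made with a stranded mRNA kit from 2 samples each of 10p- and 48p-HFSCs. The authors aligned the reads to mm10; the submitters' processing notes name TopHat2 2.1.1, Bowtie2 2.2.8, SAMtools 0.1.18 and Cuffdiff 2.2.1, while the methods of the study name other versions of Bowtie2 and SAMtools. The annotation and strand setting are not given in the sources used here. The deposited values are FPKM, 1 per gene symbol and library, so no count test was run and depth is only known relative to other libraries.

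FPKM was transformed to log2(FPKM + 1), genes under an FPKM of 1 in more than 2 of the 4 libraries were left out, and groups, taken from the labels, were compared over all genes with limma 3.58.1 in R 4.3.3 (variance trend, Benjamini-Hochberg adjustment, two-sided). Checked on simulated data of this comparison with 11018 genes, 200 of them changed, the test recovered 96.6% of changes of 3 and 44.7% of changes of 1.5 on the log2 scale, and 1.88% of calls were false. The simulated noise was independent between libraries, equal in both groups and free of length effects. In the real data 17% of genes differed by at least 1 between the 48p replicates and 1.37% between the 10p replicates. These rates therefore do not carry over to the real calls. Positions and lengths are from GENCODE M21 (GRCm38), with lengths for 10958 of the genes tested.

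The 10 genes and the lists were chosen with earlier results of these data known. All 10 are named, with called genes of the lists, uncalled ones where a value was needed, and the 3 genes nearest in pattern. Alternatives comprised pseudocount, filter, scaling, length and GC correction, variance prior, block and leaving out each library. The differentiation marker Flg was not analysed here, and 2 genes of the lists are not reported here and were left out of list counts and medians.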

Additional observations from a re-analysis of the deposited data

How the results depend on the processing

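Dsg2 and Dsc2 kept their direction in every alternative, and so did Dsc3, Jup, Pkp1, Pkp2 and Perp. The lowest and highest values with 1 library left out were 2.26 and 2.97 for Dsg2, -1.61 and 0.79 for Dsg3, 2.33 and 3.12 for Dsc2, 0.85 and 2.59 for Dsc3, 0.85 and 1.12 for Jup, 0.94 and 1.40 for Pkp1, and -0.065 and 1.61 for Dsp; a lone library was then assumed to vary like the other group. Over the same fits with 1 library left out, counts of calls ranged from 35 to 1936 higher and 140 to 1875 lower over all genes, 0 to 4 among desmosome genes, 0 to 2 among other desmosomal genes and regulators, 0 to 3 higher and 0 to 1 lower among transcription factors, and 0 to 3 in the adherens junction and in the hemidesmosome. Scaling to TPM gave 623 genes higher in all, 1 desmosome gene, 1 hemidesmosome gene and 0 higher in the other lists, with Dsc2 at 2.23 (adjusted p = 0.053), Pkp1 at 0.59 (0.384) and Pkp3 at -0.41 (0.538). Quantile scaling gave Pkp1 at 0.85 (0.145) and Pkp3 at -0.074 (0.855). Without the filter 4.89% of 16679 genes were higher and 3.82% (637 genes) lower. Pkp1 then stood at 1.17 (0.0634), with 1 transcription factor and 1 other desmosomal gene higher. A mean FPKM of at least 1 gave 1 other desmosomal gene, beside 1076 higher of 10905 genes, and an adjusted p of 0.0537 for Pkp1. Correction for length and GC called 5 desmosome genes, Dsg2 among them, and 1 other desmosomal gene (background 11.5% higher), with Dsc3 at 1.98 (0.0389) and Jup at 1.02 (0.0409). An adjusted p under 0.1 gave 2 regulators higher and 1 adherens junction gene lower, beside 1453 higher and 1303 lower of all 11018 genes tested. With no pseudocount the log2 ratio of mean FPKM of Dsg2 was 7.89, which rests on 10p values near 0 (chosen after seeing the data). The cause of these changes was not tested.

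Replicate numbers are shared between the groups in the labels, but nothing says that they mark a shared culture or day; the deviations of same-numbered libraries correlated with r = 0.41 over genes, with 2 pairs. The replicate block gave 1613 calls higher and 1497 lower over all genes, and Dsc3 passed at 1.72 (adjusted p = 0.000668), with 2 regulators higher and 1 adherens junction gene lower. With the block and the length and GC correction together 6 desmosome genes were called, Dsg2 among them (13.9% of all genes higher). Dsc3 stood at 1.98 (0.000776), Jup at 1.02 (0.0241) and Dsp at 1.14 (0.0137).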
